A study of Mus musculus with 27 samples.

Results

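The experiment examined here lowered LSD1, a histone demethylase encoded by Kdm1a, in Ba/F3 cells, a mouse line described as pro-B that depends on the cytokine IL3. It comprised 3 LSD1 knockdown libraries and 5 no-target libraries, 8 of the 27 RNA-seq libraries of the series, chosen by their titles. Both groups had been transduced with lentivirus carrying a short hairpin, against LSD1 or without a target, and kept under puromycin for at least 1 week. Both were then deprived of IL3 for 6 h and given IL3 at 10 ng/mL for 30 min, so every library described here comes from stimulated cells unless it is named as deprived. Hairpin sequences and the number of hairpins per target were not used here. Replicates are labelled as biological, without saying whether they were separate transductions. The analysis asked which transcripts differ when LSD1 is lowered, and how those differences relate to the Kdm1a left in each library.

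LSD1 removes methyl groups from histone H3 at promoters and enhancers and works inside a co-repressor complex with CoREST proteins and the deacetylases HDAC1 and HDAC2. It is brought to DNA by repressors with a SNAG domain, among them GFI1 and GFI1B, which act in blood cell development and are known to repress their own genes. In blood progenitors this complex is known for holding back myeloid genes.

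Kdm1a (chromosome 4, 136550540 to 136602723, minus strand; GRCm38/mm10, GENCODE vM21, used for all positions) was lower in every LSD1 knockdown library. Its level in CPM, counts per M reads counted in genes, was 73.0, 55.4 and 103 in LSD1 knockdown replicates 1 to 3, against 156, 151, 129, 150 and 140 in no-target replicates 1 to 5. The groups did not overlap, and the libraries kept 50.2%, 38.1% and 70.6% of the no-target mean. The log2 fold change was -0.91 (SE 0.14, adjusted p = 0.00126, edgeR quasi-likelihood test with Benjamini-Hochberg adjustment over all genes tested). An exact two-sided permutation test of the mean log2 CPM gave p = 0.0357, the smallest that 3 libraries against 5 allow. Without the libraries rich in reads outside genes, described next, the log2 fold change was -0.90 and narrowly missed the threshold (adjusted p = 0.0515, edgeR), and with only the 8 libraries in the fit it was -0.90 with adjusted p = 0.821. The 3 knockdown libraries therefore differ in the Kdm1a transcript left: replicate 2 has the least and replicate 3 the most. These RNA libraries do not measure the LSD1 protein left.

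The libraries also differed in ways that the hairpin does not define. Counted reads ranged from 5.54 to 21.4 M in the LSD1 knockdown and from 6.93 to 17.6 M in the no-target controls. LSD1 knockdown replicate 1 had 25.1% of its reads outside genes, and no-target replicates 1 and 3 had 14.2% and 17.5%, against 9.58 to 11.3% in the other 5 libraries. These 3 libraries lie apart on principal component 1 (35.4% of the variance), and the calls made without such libraries are given below. LSD1 knockdown replicate 2 had the lowest score of the 8 on the second component, at -56.1, against -27.9 to 31.8 in the others. The pro-B label rests on few defining markers here: Cd79a stood at 26.9 to 70.8 CPM in the LSD1 knockdown and 24.2 to 51.1 CPM in the no-target controls, whereas Pax5, Ebf1 and Rag1 were at most 0.490 CPM across the 8 libraries.

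Few genes passed the test, and nearly all of them were higher in the LSD1 knockdown. Of 12073 genes tested, 20 were called at an adjusted p under 0.05 (0.166%), 19 higher (0.157%) and 1 lower (0.00828%), the last being Kdm1a. The rises ranged from a log2 fold change of 1.02 to 8.05, with a median of 2.83. At an unadjusted p under 0.05 there were 810 genes (6.71%), of which 530 genes were higher (4.39%) and 280 lower (2.32%), and the median over all genes was -0.018. In 16 of the 19 rises the groups did not overlap, where 206 of all genes tested (1.71%) lay entirely above the no-target libraries and 132 (1.09%) entirely below them. The exceptions were Cpa3, Ifitm6 and Il13. The count depends on the libraries used: 5 genes passed without LSD1 knockdown replicate 2 and 57 without replicate 3, while 6 passed without the libraries rich in reads outside genes. Of the 20, Alox15, Gfi1b, Pilra, Slc15a3 and Tmem132a were called there, and the other 15 were not (adjusted p = 0.0515 to 0.250, edgeR), although 14 of these had log2 fold changes of 1.19 to 6.08 and Kdm1a stayed lower. The calls also rest on a spread estimated over all 27 libraries: with only these 8 in the fit edgeR called 0 genes, with 411 at an unadjusted p under 0.05, where DESeq2 on all libraries called 64, the 20 among them.

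**Figure D1:**
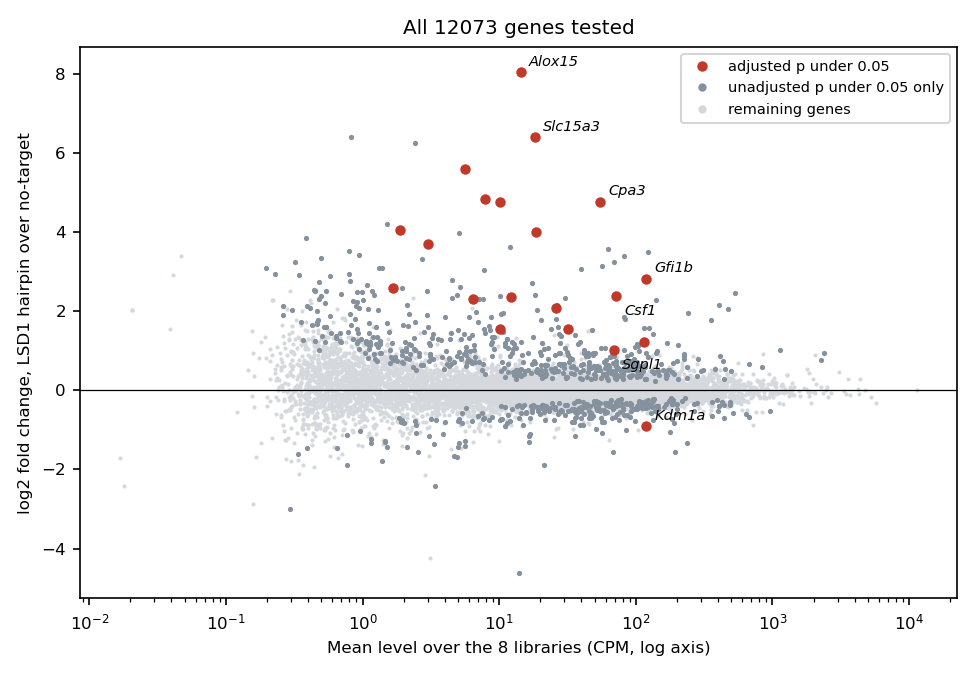
Each point is 1 of the 12073 genes tested, with its mean level over the 8 libraries (CPM, log axis) against its log2 fold change in the LSD1 knockdown over the no-target controls. The 20 called genes are red, grey-blue points pass only an unadjusted p of 0.05, and Kdm1a is the one called gene below 0.

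The transcription factor among the rises was Gfi1b, a SNAG-domain repressor of erythroid and megakaryocytic cells (chromosome 2, 28609450 to 28621982, minus strand). Gfi1b stood at 176, 445 and 154 CPM in LSD1 knockdown replicates 1 to 3, against 32.6, 23.2, 34.8, 21.9 and 69.1 CPM in no-target replicates 1 to 5. Every knockdown library lay above every no-target library, and replicate 2 was the highest (log2 fold change 2.83, SE 0.37, adjusted p = 0.000251, edgeR). Its relative Gfi1 was not tested, since its highest level among the 8 libraries was 0.355 CPM. Among the 11 SNAG-domain repressors listed, 2 were expressed enough to be tested and Gfi1b was the one called.

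Among the promoters of the rises, 4 are printed because their genes moved together and because 3 motifs of factors known in these cells can be looked for in them. RefSeq (GRCm38.p6) gave 300-base windows, from 250 bases before the transcript start to 50 after it, for 14 of the 19 genes. Capitals mark AAATC, the core that GFI1 and GFI1B recognise, AGATAA, which GATA1 and its relatives bind, and TTCNNNGAA, a STAT5 site, each on either strand.

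Gfi1b (chr2:28621933-28622232, minus strand): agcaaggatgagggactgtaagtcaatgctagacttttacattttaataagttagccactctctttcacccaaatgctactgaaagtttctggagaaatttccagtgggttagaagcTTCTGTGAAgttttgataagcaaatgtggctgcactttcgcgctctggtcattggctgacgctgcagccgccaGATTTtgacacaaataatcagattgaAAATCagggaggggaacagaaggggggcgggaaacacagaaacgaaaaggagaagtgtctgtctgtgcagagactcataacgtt
Cpa3 (chr3:20242132-20242431, minus strand): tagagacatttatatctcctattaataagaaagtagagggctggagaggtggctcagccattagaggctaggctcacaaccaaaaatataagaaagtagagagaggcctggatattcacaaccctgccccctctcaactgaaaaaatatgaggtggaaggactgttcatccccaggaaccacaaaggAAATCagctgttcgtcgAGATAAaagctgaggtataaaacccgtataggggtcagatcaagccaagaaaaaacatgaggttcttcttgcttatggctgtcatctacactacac
Milr1 (chr11:106750976-106751275, plus strand): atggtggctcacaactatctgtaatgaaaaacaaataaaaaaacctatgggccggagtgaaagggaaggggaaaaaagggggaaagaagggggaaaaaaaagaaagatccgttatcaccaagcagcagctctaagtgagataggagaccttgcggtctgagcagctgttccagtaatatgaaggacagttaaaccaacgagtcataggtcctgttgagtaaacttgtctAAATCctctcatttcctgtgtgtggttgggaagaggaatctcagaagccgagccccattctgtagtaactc
Csf1 (chr3:107760420-107760719, minus strand): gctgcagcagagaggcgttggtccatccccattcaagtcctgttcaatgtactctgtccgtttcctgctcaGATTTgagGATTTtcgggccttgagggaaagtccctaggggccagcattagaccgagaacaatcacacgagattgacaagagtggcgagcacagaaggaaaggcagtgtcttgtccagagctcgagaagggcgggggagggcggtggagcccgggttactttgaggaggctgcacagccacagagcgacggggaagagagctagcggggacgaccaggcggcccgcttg

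The window of Gfi1b held AAATC on both strands together with a TTCNNNGAA match, and no matches overlapped in these 4 windows. AAATC was present for 7 of the 14 genes (Atp6v0a1, Cpa3, Csf1, Gfi1b, Il13, Milr1 and Slc45a3), and in 35.9% of the 32851 promoter windows of that table. AGATAA was present for 4 of the 14, against 11.2% of all windows, and TTCNNNGAA for 2, against 8.30%. A match is a match of letters only, and these counts were not tested.

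The rise with the smallest p was Slc15a3, a lysosomal transporter of peptides and histidine (chromosome 19, 10839727 to 10859362, plus strand). It was present at 16, 122 and 3.94 CPM in the 3 LSD1 knockdown libraries, against 0.405 to 0.679 CPM in the 5 no-target libraries (log2 fold change 6.40, SE 0.76, adjusted p = 0.000157, edgeR). The gene was thus nearly silent without the knockdown and reached 223 times the no-target mean in replicate 2. Tmem132a, on the opposite strand, shares exon sequence with it, and stood at 4.41, 15.7 and 1.28 CPM in the knockdown and 0.283 to 0.936 CPM in the no-target controls (log2 fold change 3.69). The library kit does not mark strand, so reads of these genes cannot be told apart where they overlap.

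The largest fold change belonged to Alox15, a lipoxygenase of eosinophils and macrophages (chromosome 11, 70344152 to 70352031, minus strand). Alox15 was at 16, 96.6 and 1.38 CPM in the LSD1 knockdown, against 0, 0.474, 0.380, 0 and 0 CPM in the no-target controls (log2 fold change 8.05, SE 1.00, adjusted p = 0.000171, edgeR). The groups did not overlap, but the no-target libraries together held 7 reads of it, so the size of the fold is poorly set.

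Immune receptors formed the next group of rises. Pilra, an inhibitory receptor of myeloid cells (chromosome 5, 137821952 to 137836281, minus strand), stood at 12.4, 43.9 and 2.80 CPM in the knockdown, against 0.405 to 1.18 CPM in the no-target controls (log2 fold change 4.83, SE 0.65, adjusted p = 0.000356, edgeR). Its activating relative Pilrb2, which is outside the naming rule because of its low level, was called too at 3.10, 9.85 and 0.734 CPM against 0 to 0.474 CPM. Pilra, Pilrb1 and Pilrb2 are close copies lying side by side. Reads without a unique alignment were tallied apart and not counted in genes, and how many of them came from these copies is not known. Milr1, an inhibitory receptor of mast cells, stood at 15.2, 109 and 10.2 CPM in the knockdown against 0.676 to 6.16 CPM (log2 fold change 4.00, adjusted p = 0.0179, edgeR). The call of Milr1 was lost in 10 of 18 alternatives. Exons of Pilra, Pilrb2 and Milr1, like those of Pi16 and Scpep1 below, also overlap those of a gene on the opposite strand.

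Secreted factors were called as well. Csf1, the growth factor of macrophages (chromosome 3, 107741048 to 107760469, minus strand), was at 94.1, 282 and 58.3 CPM in the LSD1 knockdown, against 18.5, 19.5, 52.7, 24.7 and 24.1 CPM in the no-target controls (log2 fold change 2.38, SE 0.49, adjusted p = 0.0339, edgeR). The groups came close to each other, at 58.3 CPM in knockdown replicate 3 and 52.7 CPM in no-target replicate 3. The call of Csf1 was lost in 13 of 18 alternatives, among them no filter on low counts, a term for library class and leaving out LSD1 knockdown replicate 2 (log2 fold change 1.43) or any of no-target replicates 1, 2, 4 and 5. Il13, a type 2 cytokine (chromosome 11, 53631324 to 53634702, minus strand), was called with overlapping groups, at 0.817, 42.2 and 0.275 CPM in the knockdown against 0 to 0.507 CPM, so its call rests on replicate 2. Il4, the adjacent gene of the same cytokine cluster, was named after its values were seen. It stood at 0.653, 17.6 and 0.504 CPM in the knockdown and 0 to 0.380 CPM in the no-target controls, and just missed the threshold (adjusted p = 0.0554, edgeR).

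Cpa3, the carboxypeptidase of mast cell granules (chromosome 3, 20215620 to 20242181, minus strand), shows the same dependence on a single library. It was at 18.6, 390 and 3.99 CPM in the LSD1 knockdown, against 2.16, 4.27, 8.62, 8.71 and 1.30 CPM in the no-target controls (log2 fold change 4.77, SE 0.94, adjusted p = 0.0279, edgeR). Replicate 3 lay inside the no-target range, and without replicate 2 the log2 fold change was 1.10 with no call. Ifitm6, an interferon-induced membrane protein gene of myeloid cells, behaved alike at 6.37, 67.3 and 1.93 CPM in the knockdown against 0.0720 to 2.84 CPM.

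Smaller rises concerned genes already well expressed in the no-target controls. Tmem173, which encodes the cytosolic DNA-response adaptor STING, was at 30.4, 99.7 and 20.4 CPM in the knockdown against 8.28 to 16.7 CPM (log2 fold change 2.08, adjusted p = 0.0242, edgeR). Atp6v0a1, a subunit of the vacuolar proton pump, was at 138, 265 and 137 CPM in the knockdown against 61.7 to 94.3 CPM (log2 fold change 1.23, adjusted p = 0.0309, edgeR). Sgpl1, the lyase that degrades sphingosine phosphate, had the smallest rise, at 87.0, 148 and 67.2 CPM in the knockdown against 40.9 to 65.9 CPM (log2 fold change 1.02, adjusted p = 0.0284, edgeR). For Atp6v0a1 the libraries with 50.2% and 70.6% of Kdm1a had nearly equal levels, and for Sgpl1 replicate 3 lay just above the highest no-target library. Atp6v0a1 and Sgpl1 each lost their call in 11 of 18 alternatives, and Tmem173 in 10, all of them also without LSD1 knockdown replicate 2. Further calls were Scpep1 and Pi16, which encode a serine carboxypeptidase and a peptidase inhibitor, with Slc45a3 and the clone-named AI450353, at log2 fold changes of 1.54, 2.35, 2.58 and 1.56. Scpep1 lost its call in 12 of 18 alternatives, with any single no-target library left out and without LSD1 knockdown replicate 2, where its log2 fold change was 0.40. AI450353 lost its call in 10 of 18, Pi16 in 8 and Slc45a3 in 6.

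**Figure D2:**
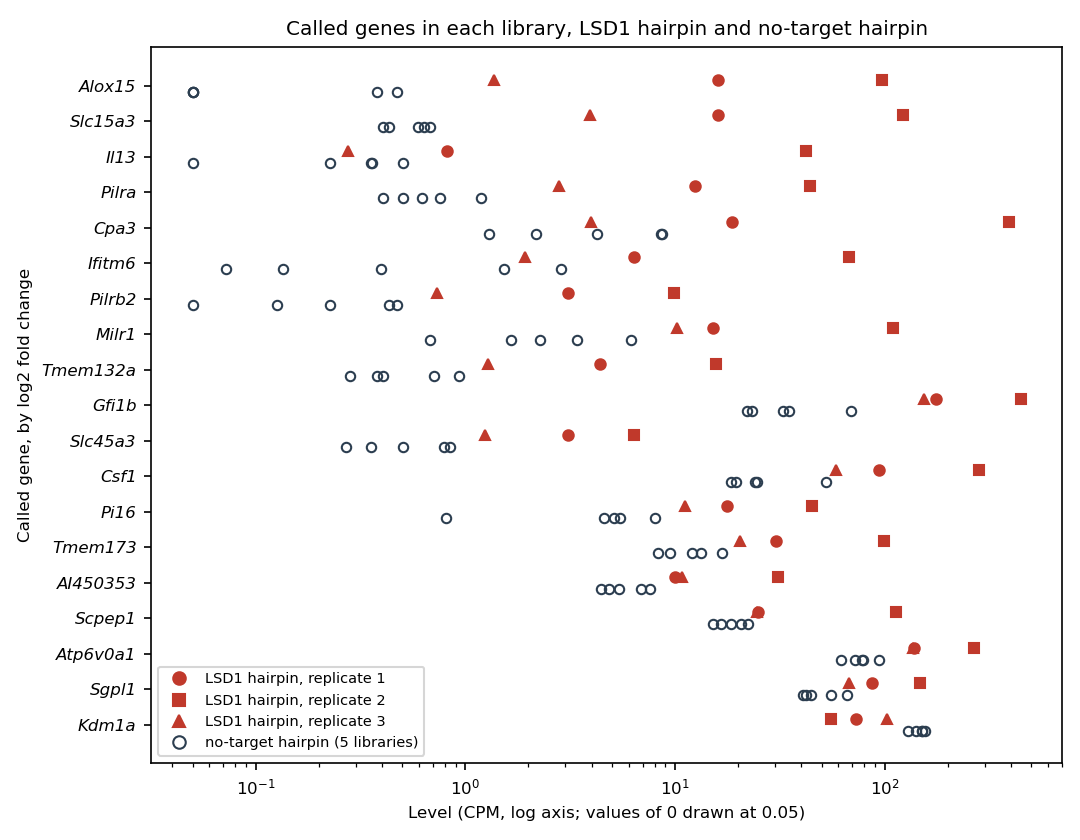
Level of 19 of the 20 called genes (CPM, log axis, values of 0 drawn at 0.05) in each LSD1 knockdown library (red, a symbol per replicate) and each no-target library (open circles), from the largest rise at the top to Kdm1a at the bottom. Squares, replicate 2, lie farthest from the no-target circles in nearly every gene.

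The size of these rises ran opposite to the Kdm1a left in each library. With 38.1% of Kdm1a left, the 19 rises stood at a median of 12.2 times the no-target mean (replicate 2). With 50.2% left the median was 4.83 (replicate 1), and with 70.6% left it was 2.23 (replicate 3). All 19 lay above every no-target library in replicates 2 and 1, and 16 did in replicate 3, where 21.7%, 16% and 15.1% of all genes tested did so in these 3 libraries. The order replicate 2, then 1, then 3, the reverse of the Kdm1a levels, was found in 17 of the 19 rises, in 10.7% of all genes tested and in 32.0% of the 206 genes lying above all no-target libraries. AI450353 was among those with another order. These shares describe 3 libraries, and the calls were made with the same libraries, so no test of this order is given.

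**Figure D3:**
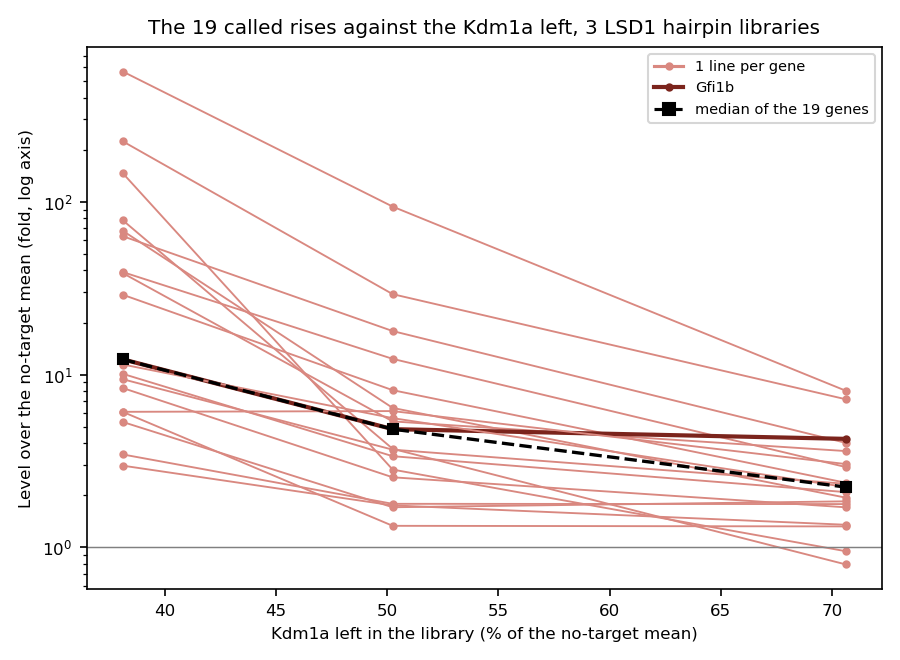
For each of the 19 called rises, the level in the 3 LSD1 knockdown libraries over the no-target mean (fold, log axis) against the Kdm1a left (percent of the no-target mean). The median (dashed) was 12.2, 4.83 and 2.23 at 38.1%, 50.2% and 70.6% of Kdm1a, and Gfi1b (dark line) was at 12.2, 4.83 and 4.24.

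Calls made without a library can be read in the library left out. The no-target libraries that made the calls are also the ones it is read against, so this is not an independent test. Without replicate 2, 4 genes were called higher (Alox15, Gfi1b, Pilra and Slc15a3), and all 4 lay above every no-target library in replicate 2, at a median of 143 times the no-target mean. Without replicate 1, 25 were called higher and 24 lay above every no-target library in replicate 1, at a median of 3.37 times. Without replicate 3, 53 were called higher, of which 30 lay above every no-target library in replicate 3, at a median of 1.37 times. Replicate 2 also held the most genes that were at least 4 times above the highest no-target library at 5 CPM or more. There were 61 such genes in replicate 2, against 8 in replicate 1 and 1 in replicate 3, and 0 to 29 in the 14 stimulated libraries of wild type and the other knockdowns. LSD1 knockdown replicate 2 therefore stands apart both by its low Kdm1a and by its number of raised genes, and these cannot be told apart from other differences of that culture.

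Eosinophil granule genes leaned one way in the LSD1 knockdown, although Alox15 alone was called. Of 11 genes listed, 8 were tested and all 8 had positive log2 fold changes, with a median of 2.39 against -0.018 over all genes. The list had 7 members higher at an unadjusted p under 0.05, where 4.39% of all genes tested were. Epx, the eosinophil peroxidase, was at 730, 1753 and 769 CPM in the LSD1 knockdown against 53.2, 540, 280, 46.1 and 69.7 CPM in the no-target controls (log2 fold change 2.46, adjusted p = 0.399, edgeR). The groups did not overlap but the no-target libraries spread more than 10-fold, and no-target replicate 2 had the highest Epx of them. Prg2, the major basic protein, showed the same spread, at 246, 1857 and 247 CPM in the knockdown against 46.6, 496, 170, 103 and 58.8 CPM (adjusted p = 0.467, edgeR). Summed over the list, the knockdown libraries held 1256, 4252 and 1178 CPM, against 184, 1185, 605, 229 and 226 CPM in the no-target controls. Such sums were not particular to the LSD1 knockdown: the STAT5A knockdown held 1004 to 3878 CPM and the STAT5B knockdown 1077 to 1828 CPM. The HDAC3 knockdown held 96.9 to 262 CPM, stimulated wild type 246 to 1141 CPM and deprived wild type 294 to 1345 CPM. Without replicate 2 the median of the list was 0.80.

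Mast cell and basophil genes leaned upward gene by gene, but their summed levels overlapped between groups. All 12 tested of 18 listed had positive log2 fold changes, where 47.2% of all genes tested did, with a median of 1.65 and Cpa3 called. Of the 12, 6 were higher at an unadjusted p under 0.05, where 4.39% of all genes were. The sums were 941, 2874 and 852 CPM in LSD1 knockdown replicates 1 to 3, against 614, 564, 960, 1156 and 1350 CPM in the no-target controls. Replicates 1 and 3 thus lay within the no-target range. The HDAC3 knockdown held 541 to 1602 CPM, the STAT5A knockdown 814 to 835 CPM and the STAT5B knockdown 628 to 1979 CPM. Hdc, the enzyme that makes histamine, was at 103, 286 and 77.9 CPM in the LSD1 knockdown, against 11.8, 21.9, 33.3, 2.88 and 12.7 CPM in the no-target controls (log2 fold change 3.26, adjusted p = 0.140, edgeR), without overlap. Cd200r3, an activating receptor of mast cells and basophils, was at 41.5, 381 and 16.7 CPM against 1.22 to 20.1 CPM (adjusted p = 0.129, edgeR), with replicate 3 inside the no-target range. Cma1, the mast cell chymase, did not follow: it was at 39.0, 874 and 60.5 CPM in the knockdown and 89.7 to 452 CPM in the no-target controls, so that 2 knockdown libraries lay below every no-target library. Without replicate 2 the median of the list was 0.55. Kit, the receptor that defines mast cells, had a highest level of 0.653 CPM among the 8 libraries.

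Of 38 myeloid and granulocyte markers, 26 were tested, 21 had positive log2 fold changes and none was called, with a median of 0.87. Of all genes tested, 47.2% had positive log2 fold changes. Summed levels were 1235 to 2298 CPM in the LSD1 knockdown and 518 to 1695 CPM in the no-target controls. High sums were not particular to LSD1: they were 1396 to 3657 CPM in the STAT5A knockdown and 1692 to 2135 CPM in the STAT5B knockdown. The HDAC3 knockdown held 444 to 1258 CPM. Mpo, the neutrophil peroxidase, was at 186, 106 and 278 CPM in the LSD1 knockdown, against 30.3, 35.5, 16.9, 1.24 and 7.70 CPM in the no-target controls (log2 fold change 3.40, adjusted p = 0.162, edgeR). Its groups did not overlap, and its highest level was in replicate 3, the library with the most Kdm1a left. Ncf1, a subunit of the phagocyte oxidase, was at 40.7, 64.6 and 33.0 CPM against 7.84 to 22.9 CPM, and Clec7a, the fungal sugar receptor, at 33.0, 44.5 and 29.3 CPM against 5.15 to 13.6 CPM. Neither passed (adjusted p = 0.107 for Ncf1 and 0.129 for Clec7a, edgeR). The median of the list was 1.73 without no-target replicate 2 and 0.52 without LSD1 knockdown replicate 3. Csf1r, the receptor for Csf1 and a defining macrophage gene, had a highest level of 0.689 CPM among them.

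Lists of other lineages had medians nearer to 0. The 16 tested erythroid and megakaryocytic genes had a median of 0.17, and Gfi1b was the one called. The 11 tested B-lineage genes had a median of 0.17 with none at an unadjusted p under 0.05, and the 7 tested T and NK cell genes a median of 0.046, with none called. Of those 7, Lck and Il2rb were higher at an unadjusted p under 0.05, where 4.39% of all genes tested were. Lck, a kinase of T cell receptor signalling, was at 3.76, 4.41 and 3.07 CPM in the LSD1 knockdown against 1.07 to 3.02 CPM in the no-target controls. Il2rb, a chain of the IL2 receptor, was at 5.39, 8.61 and 3.81 CPM against 1.62 to 3.93 CPM. Epithelial and fibroblast markers were represented by 1 tested gene. Summed levels of B-lineage genes were 548 to 697 CPM in the LSD1 knockdown and 501 to 826 CPM in the no-target controls. In bulk RNA, more cells of a type and more RNA per cell cannot be told apart, and the part of any mixture of cell types in these differences was not tested.

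**Figure D4:**
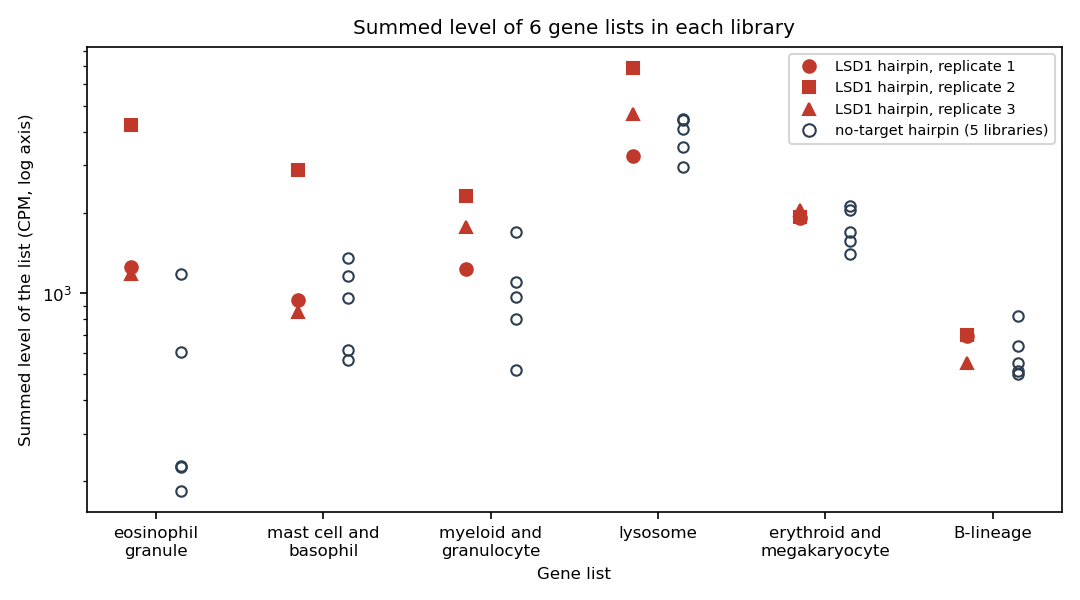
Summed level (CPM, log axis) of 6 gene lists in each LSD1 knockdown library (red, left of each pair, a symbol per replicate) and each no-target library (open circles, right). Eosinophil sums were 1178 to 4252 CPM in the knockdown and 184 to 1185 CPM in the no-target controls, overlapping at no-target replicate 2, while erythroid and B-lineage sums overlapped throughout.

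Lysosomal genes shared the direction of Slc15a3 and Atp6v0a1. Of 27 tested, 24 had positive log2 fold changes with a median of 0.41, and none was called. Of all genes tested, 47.2% had positive log2 fold changes. Neu1, the lysosomal sialidase, was at 78.2, 189 and 124 CPM in the LSD1 knockdown against 50.8 to 84.8 CPM in the no-target controls (adjusted p = 0.347, edgeR). The summed level was 3241, 6895 and 4664 CPM in the knockdown and 2952 to 4465 CPM in the no-target controls, so that replicate 1 lay within the no-target range. High sums were not particular to LSD1: they were 4449 to 5950 CPM in the STAT5A knockdown and 4955 to 7501 CPM in the STAT5B knockdown. The HDAC3 knockdown held 2617 to 4804 CPM, stimulated wild type 4088 to 4755 CPM and deprived wild type 4957 to 5191 CPM.

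The partners of LSD1 were not called. Of the 17 genes of the LSD1-CoREST list all were tested, Kdm1a was called lower and 12 had negative log2 fold changes, with a median of -0.21. Of all genes tested, 52.7% had negative log2 fold changes. Rcor2 and Hdac2 were among those lower at an unadjusted p under 0.05, where 2.32% of all genes were. Rcor1, the CoREST scaffold, was at 97.2, 10.1 and 16.9 CPM in the knockdown and 74.4, 12.2, 127, 12.8 and 12.6 CPM in the no-target controls. Its high values were those of the 3 libraries rich in reads outside genes. Hdac1 was at 90.3 to 118 CPM in the knockdown and 74.7 to 109 CPM in the no-target controls, and the related demethylase Kdm1b at 21.2 to 35.4 CPM against 19.8 to 38.0 CPM.

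Below Kdm1a no gene passed as lower, and the 5 next by p are given by their values. Tnip1, an inhibitor of NF-kB signalling, was at 51.0, 53.9 and 73.5 CPM in the LSD1 knockdown against 78.1 to 95.1 CPM in the no-target controls (log2 fold change -0.54, adjusted p = 0.107, edgeR). Usp17lb, a cytokine-induced deubiquitinase of a family of near copies, was at 1.63, 0.896 and 0.413 CPM against 2.15 to 7.58 CPM, and Lsm14b, an RNA-binding protein gene, at 43.9 to 48.8 CPM against 55.1 to 70.6 CPM. Neither of these overlapped between groups. Tmem59 was at 78.5 to 133 CPM in the knockdown against 123 to 172 CPM. Srf, the serum response factor, was at 291, 310 and 343 CPM against 335 to 658 CPM, and in both of these genes the groups overlapped.

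The response to IL3 was examined because every library of this comparison was taken 30 min after stimulation. In wild type, 5 stimulated against 5 deprived libraries gave 461 calls (3.82%), or 2504 with the replicate number as a block. Called genes changed at least 2-fold in the fit without the block formed an induced set of 217 genes and a repressed set of 41. The wild-type libraries enter the LSD1 comparison through the filter on low counts, the scaling factors and the estimate of spread, which all libraries share. In the LSD1 knockdown 167 of the 217 induced genes (77.0%) had negative log2 fold changes, against 52.7% of all genes, and the median was -0.29. None of the 217 was called, while 31 were lower (14.3%) and 7 higher (3.23%) at an unadjusted p under 0.05. Of all genes tested, 2.32% were lower and 4.39% higher at that threshold. Of the 41 repressed genes 8 had negative log2 fold changes, the median was 0.29 (0.16 without no-target replicate 2), and without 1 library 7 to 16 were negative, 16 without LSD1 knockdown replicate 3 and 12 without replicate 1. Among the 41, Gfi1b was the one called. Per library, the median of the induced set on the log2(CPM + 0.5) scale relative to the no-target mean was -0.21, -0.18 and -0.45 in LSD1 knockdown replicates 1 to 3, against 0.17, 0.051, -0.25, 0.13 and -0.028 in no-target replicates 1 to 5. No-target replicate 3 thus lay below 2 of the knockdown libraries, and the library with the most Kdm1a left had the lowest value, the reverse of the order seen for the rises.

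**Figure D5:**
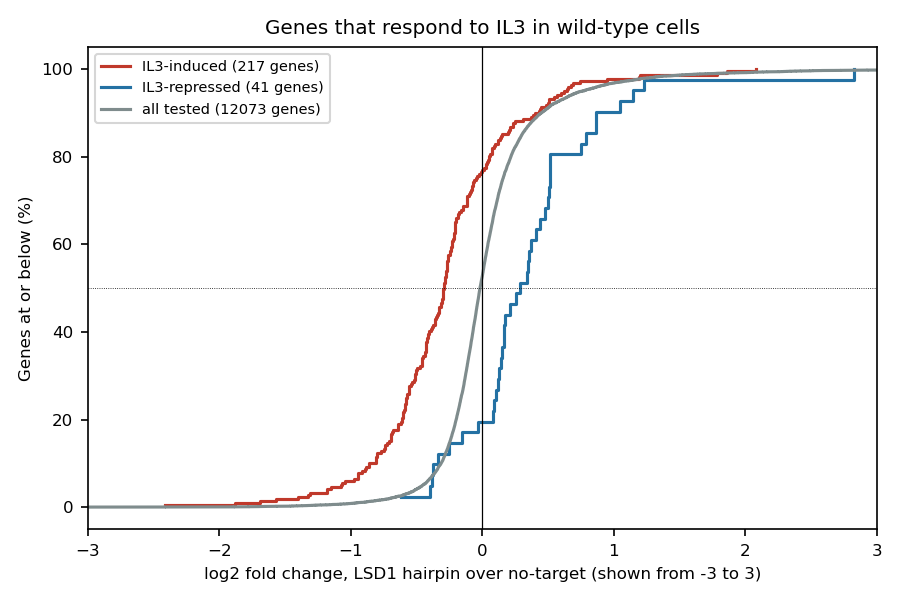
Cumulative share of genes (percent) by log2 fold change in the LSD1 knockdown over the no-target controls, for 217 IL3-induced genes (red), 41 IL3-repressed genes (blue) and all 12073 tested (grey). The medians were -0.29, 0.29 and -0.018, and the axis is shown from -3 to 3.

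Of the core cytokine-response genes, 14 of 15 were tested, none was called, and 10 had negative log2 fold changes with a median of -0.27. Of all genes tested, 52.7% had negative log2 fold changes. Socs3, a feedback inhibitor of cytokine receptors, was at 83.6, 93.6 and 81.9 CPM in the LSD1 knockdown, against 514, 194, 76.0, 219 and 278 CPM in the no-target controls (log2 fold change -1.57, adjusted p = 0.562, edgeR). No-target replicate 3 lay below all 3 knockdown libraries. Cish, another feedback inhibitor, was at 249 to 713 CPM against 338 to 686 CPM, the kinase gene Pim1 at 304 to 522 CPM against 426 to 655 CPM, and Myc at 686 to 1154 CPM against 856 to 1823 CPM. All 3 overlapped between groups. Fos ranged from 13.3 to 310 CPM in the knockdown and from 12.4 to 312 CPM in the no-target controls, so that both groups spread widely. Immediate early genes as a list had a median of -0.31 over 34 tested, with none called. Of the 34, 6 were lower at an unadjusted p under 0.05, where 2.32% of all genes tested were.

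Gfi1b itself responds to IL3 in wild type. It was at 120, 37.7, 52.5, 36.6 and 48.0 CPM in stimulated wild-type replicates 1 to 5, against 151, 124, 157, 148 and 157 CPM in deprived ones (log2 fold change -1.32, adjusted p = 0.0177, edgeR). The stimulated LSD1 knockdown libraries, at 154 to 445 CPM, thus lay within or above the range of deprived wild-type cells, and stimulated wild-type replicate 1 lay just below that range. None of the other 18 rises was called in the wild-type IL3 comparison without the block. With it 11 of them were tested, and AI450353 was called lower with IL3 (log2 fold change -0.43, adjusted p = 0.0258, edgeR).

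The rises were also set against stimulated cells without any hairpin and against the HDAC3 knockdown, a hairpin against another co-repressor enzyme. These comparisons use the same 3 LSD1 knockdown libraries, so they replace the controls and do not repeat the knockdown. Rich in reads outside genes were 2 of the 3 HDAC3 knockdown libraries, 1 of 3 LSD1 knockdown and 0 of 5 stimulated wild-type libraries. Over wild type, 173 genes were called (1.43%), 151 higher (1.25%) and 22 lower (0.182%), and 18 of the 19 rises were among those higher, Atp6v0a1 being the exception. Over the HDAC3 knockdown, 99 were called (0.82%), 77 higher (0.638%) and 22 lower (0.182%), among them 13 of the 19 rises. Atp6v0a1, Cpa3, Il13, Pilrb2 and Tmem173 were among those not called there. Kdm1a was called lower in both, at log2 fold changes of -0.85 over wild type and -0.92 over the HDAC3 knockdown. Gfi1b was at 21.8, 21.8 and 16.9 CPM in the 3 HDAC3 knockdown libraries, below all of the LSD1 knockdown, which exceeded it by a log2 fold change of 3.68 (adjusted p = 0.000421, edgeR). Csf1 stood at 17.0 to 21.8 CPM in the HDAC3 knockdown, while in the STAT5A and STAT5B knockdowns it was at 44.1 to 130 CPM and 37.7 to 66.1 CPM, above most no-target libraries.

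Genes beside the rises differed little in the median. Within 100 kb of the rises lay 79 tested genes that were not called, with a median log2 fold change of 0.026. Of these 44 had positive log2 fold changes, against 47.2% of all genes tested, and 7 were higher and 1 lower at an unadjusted p under 0.05, against 4.39% and 2.32% of all genes. Next to Gfi1b, Tsc1 had a log2 fold change of -0.10, while Ak8, 78182 bases away, stood at 2.61, 3.10 and 1.70 CPM in the LSD1 knockdown against 0.270 to 1.30 CPM in the no-target controls (adjusted p = 0.129, edgeR). Il4 beside Il13 and Pilrb1 beside Pilra were the neighbours with the highest log2 fold changes among those named here, at 6.25 and 2.52. Ak8, Tsc1 and Pilrb1 were chosen after their values were seen.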

How the data were processed

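PolyA RNA of 27 Ba/F3 libraries was sequenced by the authors with a TruSeq RNA v2 kit, per the labels' protocols. The deposited files, 1 per library, hold raw read counts by gene symbol, made by the authors with a pipeline naming Trimmomatic 0.30, TopHat2 2.0.10, HTSeq 0.5.4p5, DESeq2 1.2 and mm10, per the submitters' processing notes. The counting mode, strand setting and annotation are not given in the sources used here. The 5 summary rows, 22.4 to 36.0% of the reads listed, were left out of totals and tests.

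Counts of all 27 libraries were fitted together by edgeR's quasi-likelihood method, each group having its own mean (edgeR 4.0.16, limma 3.58.1, R 4.3.3; TMM factors, filterByExpr, robust estimation), tested on simulated data. The groups compared were the LSD1 knockdown over the no-target controls, over stimulated wild type and over the HDAC3 knockdown, and wild type with IL3 over wild type without it. Genes were called at a Benjamini-Hochberg adjusted p under 0.05. CPM values are scaled by TMM factors. Counting precision follows depth, 5.54 to 21.4 M counted reads in the 8 libraries. Labels do not say that replicates are separate transductions, so p-values measure the spread between these libraries.

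The genes named are Kdm1a, Gfi1b and Gfi1; the 16 largest rises and 12 largest falls among called genes without overlap and with a mean of at least 5 CPM in the higher group, leaving out predicted models and clone names; up to 4 called members of each of 36 gene lists; the LSD1-CoREST and core IL3 lists by values; and, where under 6 passed in a direction, the next by p. Epx, Prg2, Hdc, Cd200r3, Cma1, Mpo, Ncf1, Clec7a and Neu1, the called genes outside the rule and the genes of the closing section were chosen after their values were seen. The experiment, its lists and its tests were chosen with earlier results of these data known. Equal replicate numbers were checked for pairing by the correlation of deviations from group means. In wild type the replicate number was entered as a block in an alternative fit, and the blocked count is given. Alternatives were RLE factors, no filter, DESeq2 1.42.0, a replicate block, fitting only the groups compared, calling at 0.01, glmTreat at 1.2-fold, a term for or removal of libraries with over 13% of reads outside genes, and leaving out each replicate. A fit of the 2 groups without those libraries was added after seeing the data. A few genes are not reported here by name, while counts and medians over lists or calls include them.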

Additional observations from a re-analysis of the deposited data

Results flagged for a closer look

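In 7 genes a no-target library stood apart from the other 4 by a gap that exceeds Dixon's 95% critical value of 0.71 for 5 values. Such a gap arises in about 1 in 20 groups by chance, and 56 genes were looked at. Gfi1b was highest in no-target replicate 5, at 69.1 CPM, still below the 154 CPM of the lowest LSD1 knockdown library. Csf1 was highest in no-target replicate 3, at 52.7 CPM, just under the 58.3 CPM of LSD1 knockdown replicate 3. Ms4a2, a chain of the IgE receptor, was also highest in replicate 3, at 17.0 CPM, inside the knockdown range of 8.39 to 24.4 CPM. In no-target replicate 2, the granule protein genes Prg2 and Prg3 stood at 496 and 40.9 CPM, and Cebpe, a factor of granulocyte maturation, at 125 CPM. These 3 lie inside the LSD1 knockdown ranges of 246 to 1857, 21.7 to 135 and 92.1 to 201 CPM. Lsm14b was lowest in no-target replicate 3, at 55.1 CPM, above the 43.9 to 48.8 CPM of the LSD1 knockdown. What sets these no-target libraries apart was not tested.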

How the results depend on the processing

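Against 20 calls in the LSD1 knockdown over the no-target controls, DESeq2 gave 64 calls and a threshold of 0.01 gave 6. Removing libraries rich in reads outside genes left 6, and edgeR fits of only the 2 groups gave 0, with those libraries or without them, and also 0 with the replicate block (411, 724 and 298 genes at an unadjusted p under 0.05). Numbers do not pair the samples there (correlations 0.38, 0.43 and -0.55). Leaving out a library gave 5 to 57 calls: 5 without LSD1 knockdown replicate 2, 57 without its replicate 3, and 8, 9 and 7 without no-target replicates 1, 4 and 5. RLE factors, no filter, the library class term and glmTreat gave 16 to 21. Gfi1b, Alox15, Slc15a3 and Pilra held in 15 of 18 alternatives, all but the fits of only the 2 groups.

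Kdm1a stayed negative but lost its call at -0.90 without the libraries rich in reads outside genes, -0.90 and -0.89 in the fits of only the 2 groups, and -0.95 with the replicate block. Over wild type, 173 calls became 81 without a filter, 450 with DESeq2, 295 with the class term, 29 with only the 2 groups, 7 with the replicate block, 33 at 0.01 and 19 to 707 without 1 library (102, 19 and 707 without LSD1 knockdown replicates 1 to 3, 59 to 95 without any wild-type library). Over the HDAC3 knockdown, 99 calls became 50, 332 (DESeq2), 18 (without libraries rich in reads outside genes), 0 (only the 2 groups, edgeR, with 577 at an unadjusted p under 0.05), 11 (replicate block), 7 (0.01) and 4 to 403 without 1 library (403 and 4 without LSD1 knockdown replicates 1 and 2, 22 and 27 without HDAC3 knockdown replicates 1 and 3). In wild type, 461 IL3 calls became 698 (DESeq2), 939 (class term), 876 (without those libraries), 1170 (only the 2 groups), 2504 (replicate block), 252 (0.01) and 298 (stimulated replicate 4) to 596 without 1 library. Cma1 turned to -0.065 with the class term and ranged from -2.20 to 1.03 without 1 library, and Cdkn2a from -0.33 to 4.196. The cause of these shifts was not tested. Low genes such as Alox15 and Il13 rest on few no-target reads, which limits the precision of their folds.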

Other observations

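Ribosome biogenesis genes leaned the other way from the rises. Of 38 tested, 36 had negative log2 fold changes in the LSD1 knockdown over the no-target controls, with a median of -0.30. Of all genes tested, 52.7% had negative log2 fold changes. Of the 38, 9 were lower at an unadjusted p under 0.05, where 2.32% of all genes tested were, and none was called. Their summed level was 3806, 4264 and 4933 CPM in LSD1 knockdown replicates 1 to 3, against 6104, 4812, 3880, 5309 and 4599 CPM in no-target replicates 1 to 5, so the groups overlapped.

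Several genes that missed the threshold were highest in LSD1 knockdown replicate 2. Cdkn2a, the cell cycle inhibitor locus, stood at 1.96, 80.9 and 1.70 CPM in the LSD1 knockdown, against 0.676 to 3.28 CPM in the no-target controls (adjusted p = 0.0895, edgeR). Serpinb1a, an inhibitor of granule proteases, stood at 75.9, 731 and 48.1 CPM in the knockdown, against 16.1 to 36.0 CPM (adjusted p = 0.0532, edgeR), and was above the no-target range in all 3 libraries. Ms4a3, a gene of granulocyte progenitors, was at 373, 612 and 358 CPM in the knockdown, against 39.9 to 204 CPM (adjusted p = 0.0895, edgeR), with less difference among the 3 libraries. Aldh1a1, a retinaldehyde dehydrogenase, had a log2 fold change of -4.63 that came from 1 control: it was at 103 CPM in no-target replicate 1 and at 0.452 to 4.38 CPM in the other 4, against 0.138 to 1.74 CPM in the LSD1 knockdown.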
